A study of Arabidopsis thaliana with 12 samples.

Results

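PSAN, PSBY, PSBW and LHB1B2 are nuclear genes for proteins of the photosynthetic membrane, and their transcript levels were followed in Arabidopsis thaliana given proline. They were chosen by feature number in the deposited value table, where each of the 4 has a feature of its own in GEO's platform annotation. They are 4 of the 692 features that carry 1 gene there, among 3439 features in all. The 12 one-colour arrays held total RNA from wild-type plants of the ecotype Wassilevskija, 6 samples treated with 100 mM proline for 3 h and 6 samples given water. No time is named in the titles of the water samples, so time and proline cannot be told apart from the titles alone. Plant part, plant age and the origin of the replicates are not stated in the labels, and the p-values therefore describe the spread among these 12 samples, part of which may be technical.

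Photosystem II splits water and passes electrons on, and photosystem I uses light a further time to reduce ferredoxin. Both are built from plastid-encoded cores and from small subunits and antenna proteins that are encoded in the nucleus and imported into the plastid. PSAN encodes PsaN, a lumenal subunit of photosystem I near the docking site of plastocyanin. PSBY encodes a precursor that is cut into PsbY proteins, small membrane subunits of photosystem II. PSBW encodes PsbW, a small photosystem II subunit with a role in the larger assemblies of that complex with its antenna. LHB1B2, also called LHCB1.5, encodes an Lhcb1 protein, the major chlorophyll-binding antenna of photosystem II. Proline builds up in many plants when water is short or salt is high, and too much of it is toxic.

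The 4 genes did not move together. PSBW was higher after proline, PSAN and PSBY were lower, and LHB1B2 did not pass the test. Among the 4, 1 gene rose and 2 fell, where a change is an adjusted p under 0.05 from limma over all 2861 tested features. Of all these features 44.1% changed, 18.3% higher and 25.9% lower, and with 4 genes nothing is read from the count of 3. The median log2 change of the 4 was -0.36, against -0.12 for all tested features. In the values as deposited, without scaling between arrays, the median of all tested features was 0.057 instead, and 702 features (24.5%) were higher and 483 (16.9%) lower, against 523 and 740 after quantile normalization. Relative to that median, the log2 changes of PSAN, PSBY, PSBW and LHB1B2 were -0.68, -0.34, 0.70 and -0.14 after quantile normalization, and -0.61, -0.24, 0.50 and -0.21 as deposited. All other changes are from quantile normalized log2 values unless the deposited scale is named, except that ratios of 2 genes are from deposited values, and intensities are the deposited relative values on a linear scale. None of the 48 values of the 4 genes was listed at 0, so all 4 were tested in every sample.

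**Figure D1:**
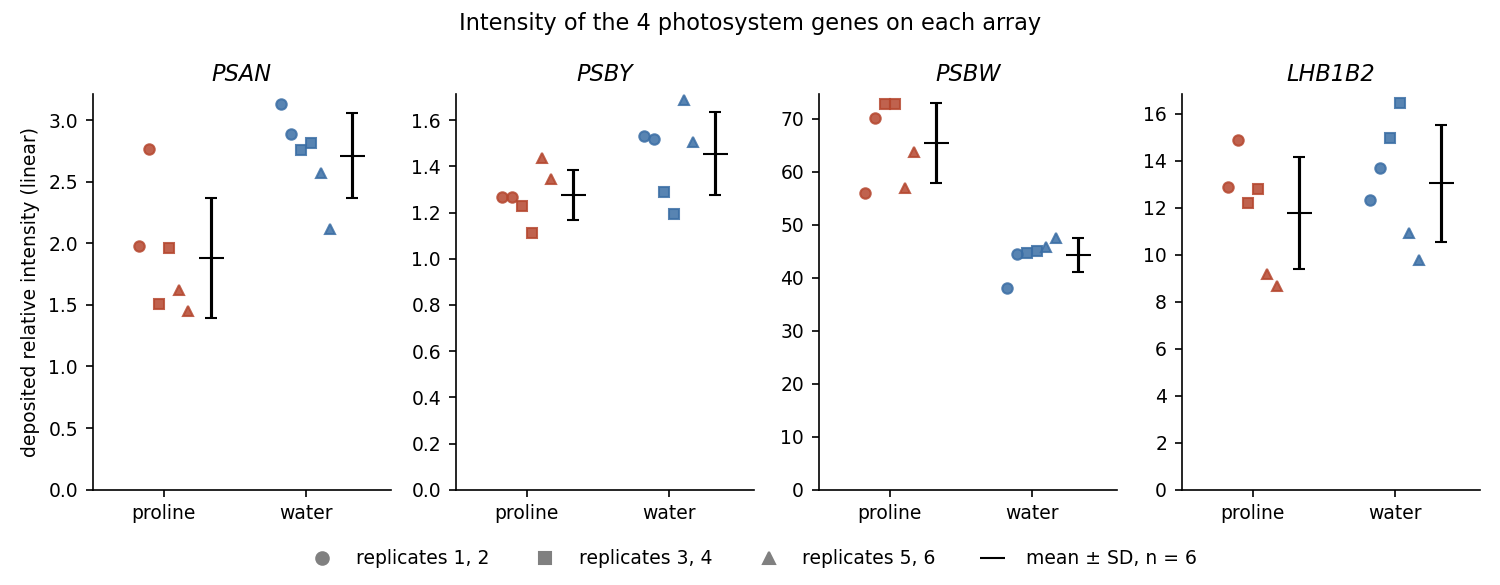
Deposited relative intensity (linear, vertical axis from 0) of each gene in the 6 proline samples and the 6 water samples. Points are samples, with a marker shape for each successive pair of replicate numbers, and the bars are the mean ± SD. The PSBW groups are fully apart, the PSAN groups overlap through proline replicate 2, and LHB1B2 is lowest in replicates 5 and 6 of both groups.

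PSAN was lower after proline. Its deposited intensity had a lowest value of 1.45, a median of 1.79 and a highest value of 2.77 in the proline samples, against 2.12, 2.78 and 3.13 in the water samples. Proline replicate 2, at 2.77, lay inside the water range, while the other 5 proline samples, between 1.45 and 1.98, lay below every water sample. In RNA from whole samples, fewer cells of a type and less RNA per cell cannot be told apart. The mean was 1.88 ± 0.489 after proline and 2.71 ± 0.343 in water (SD, n = 6 each). PSAN fell 1.74-fold (log2 -0.80 ± 0.17 SE, 95% interval -1.17 to -0.43, limma adjusted p = 0.00249). As deposited, its log2 change was -0.55 ± 0.16 SE (limma adjusted p = 0.0148). Of all tested features, 10.9% had a lower change than PSAN, and among the 574 tested features with 1 gene it was the 70th from the bottom. An exact permutation test of the normalized values over samples gave p = 0.00433 (two-sided, unadjusted).

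The fall of PSAN differed in size between the replicate numbers. Taken between same-numbered samples, the normalized log2 difference was -0.90, -0.25, -1.13, -0.76, -0.93 and -0.83 for replicates 1 to 6. All 6 were negative, with replicate 2 the nearest to 0. Replicate 2 of proline was also the sample whose removal changed the value most, to a log2 change of -0.92 (limma adjusted p = 4.56e-04). Of the 2674 features measured on every array, 26.7% also had 6 negative differences.

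PSBY was lower after proline by a smaller amount, which was very even between same-numbered samples after normalization. Its intensity had a lowest value of 1.11, a median of 1.27 and a highest value of 1.44 in the proline samples, against 1.19, 1.51 and 1.69 in the water samples. On the deposited scale the groups overlapped, because water replicates 3 and 4, at 1.29 and 1.19, lay among the proline samples. The mean was 1.28 ± 0.109 after proline and 1.45 ± 0.180 in water (SD, n = 6 each). After normalization the groups no longer overlapped, with proline samples between 0.023 and 0.33 and water samples between 0.47 and 0.78 on the log2 scale. Groups that did not overlap, with proline lower, were found for 14.8% of the 2674 features measured on every array. PSBY fell 1.37-fold (log2 -0.45 ± 0.082 SE, 95% interval -0.63 to -0.28, limma adjusted p = 7.79e-04).

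The call for PSBY depended on the scaling and on how the replicates were counted. As deposited its log2 change was -0.18 ± 0.10 SE (limma adjusted p = 0.169), in a fit that called 41.4% of features. With each successive pair of replicate numbers (1 with 2, 3 with 4, 5 with 6) averaged in each group, its log2 change was unmoved and its limma adjusted p was 0.0558, in a fit that called 23.1%. Within each number the proline sample was lower than the water sample on the deposited scale too, at 0.828, 0.833, 0.953, 0.933, 0.851 and 0.893 of the water intensity for replicates 1 to 6. The share of all features that were lower in every number on that scale was not computed.

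The normalized same-numbered differences of PSBY ran only from -0.51 to -0.42, and their SD was 0.033. The SD of PSAN was 0.30, of PSBW 0.17 and of LHB1B2 0.21, and the median SD over 2674 features was 0.33. A smaller SD than that of PSBY was found for 0.112% of these features, a comparison made after the values were seen. On the deposited scale the differences of PSBY ran from -0.27 to -0.070 with an SD of 0.086, and its share among features was not computed.

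**Figure D2:**
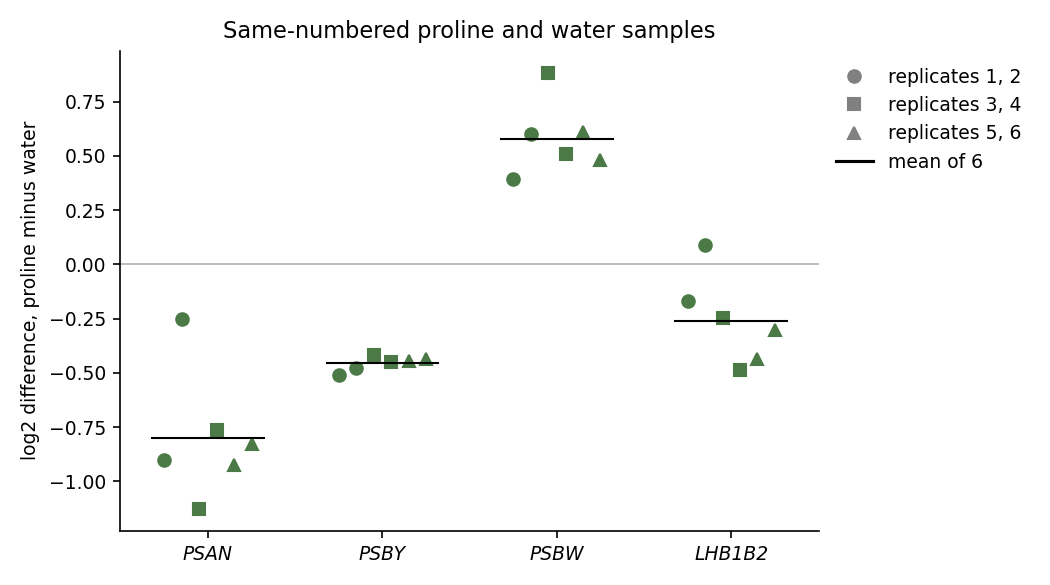
Normalized log2 difference of the proline sample minus the water sample with the same replicate number (vertical axis), for each gene. Points are the 6 numbers and the line is their mean. PSBY values lie within -0.51 to -0.42, PSAN values spread from -1.13 to -0.25, PSBW values are all above 0 and LHB1B2 values lie on both sides of 0.

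PSBW was the gene of the 4 that rose. Its intensity had a lowest value of 56.1, a median of 66.9 and a highest value of 72.7 in the proline samples, against 38.1, 44.9 and 47.5 in the water samples. Every proline sample was above every water sample, on the deposited scale and after normalization. Groups that did not overlap, with proline higher, were found for 18.2% of these features as deposited and 12.8% after normalization. The mean was 65.4 ± 7.61 after proline and 44.3 ± 3.21 in water (SD, n = 6 each). PSBW rose 1.49-fold (log2 0.58 ± 0.11 SE, 95% interval 0.34 to 0.82, limma adjusted p = 0.00120), and 17.3% of tested features had a higher change.

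The rise of PSBW was present in every same-numbered pair, and its size moved with the scaling. Between same-numbered samples the deposited intensity after proline was 1.47, 1.57, 1.63, 1.61, 1.25 and 1.34 times that in water for replicates 1 to 6. Replicates 5 and 6 thus had the smallest ratios on this scale. All 6 normalized differences were positive, between 0.39 and 0.88, as they were for 20.0% of features. PSBW lay close to the upper end of the scale, which stops at a ceiling just under 100, but no value of it was at that ceiling. Centring each array on its median gave a log2 change of 0.36 (limma adjusted p = 0.0127), and normalizing without the 9 features that reached the ceiling on any array gave 0.42 (limma adjusted p = 0.00385).

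LHB1B2 did not pass the test. Its intensity had a lowest value of 8.66, a median of 12.5 and a highest value of 14.9 in the proline samples, against 9.79, 13.0 and 16.5 in the water samples. The ranges overlapped over most of their length. The mean was 11.8 ± 2.39 after proline and 13.0 ± 2.50 in water (SD, n = 6 each). Its log2 change was -0.26 ± 0.16 SE (limma adjusted p = 0.223), and the 95% interval of -0.62 to 0.098 covers changes from 0.653-fold to 1.07-fold of the water level. As deposited the log2 change was -0.15 ± 0.17 SE (limma adjusted p = 0.490).

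LHB1B2 differed more between the successive pairs of replicates than between proline and water. The mean intensity of replicates 1 and 2 was 13.9 after proline and 13.0 in water. In replicates 3 and 4 it was 12.5 after proline and 15.7 in water, and in replicates 5 and 6 it was 8.92 and 10.4. On this deposited scale the proline mean was therefore above the water mean in the first of these pairs and below it in the other 2. After normalization the log2 differences of the pairs were -0.040, -0.37 and -0.37, so the sign in the first pair depended on the scaling. Both groups were lowest in replicates 5 and 6. A fit that blocks on replicate number left its log2 change unmoved and gave a limma adjusted p of 0.0657. Arabidopsis has several nearly identical Lhcb1 genes, among them the neighbouring LHB1B1. Whether RNA from these copies contributed to the LHB1B2 feature was not tested, so its values are uncertain as those of a single gene.

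**Figure D3:**
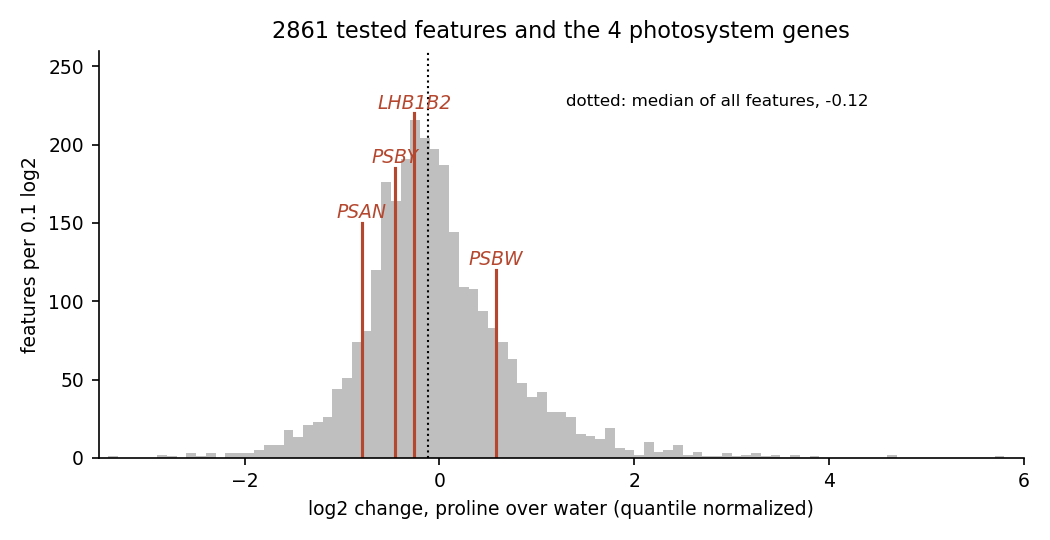
Histogram of the normalized log2 change (horizontal axis) of the 2861 tested features, with the number of features per 0.1 log2 unit on the vertical axis. Red lines mark the 4 genes and have no meaning in their height, and the dotted line is the median of all features, at -0.12. PSAN and PSBY lie left of it, PSBW right of it and LHB1B2 close to it.

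The place of each feature by brightness within its own array does not depend on any scaling of that array, although it moves when other features change and the probe also sets it. With place 1 as the brightest of 3439, PSBW held places 8 to 11 in the proline samples and 12 to 16 in the water samples. PSBY held places 313 to 381 in the proline samples and 235 to 286 in the water samples. For these genes the places of the groups did not overlap, while the deposited intensities of PSBY did. Of the 2674 features measured on every array, 13.0% had brighter places throughout after proline, like PSBW, and 13.9% had dimmer ones, like PSBY. PSAN held places 156 to 308 after proline and 123 to 180 in water, and LHB1B2 held places 35 to 61 and 28 to 51. These last 2 genes overlapped between the groups.

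**Figure D4:**
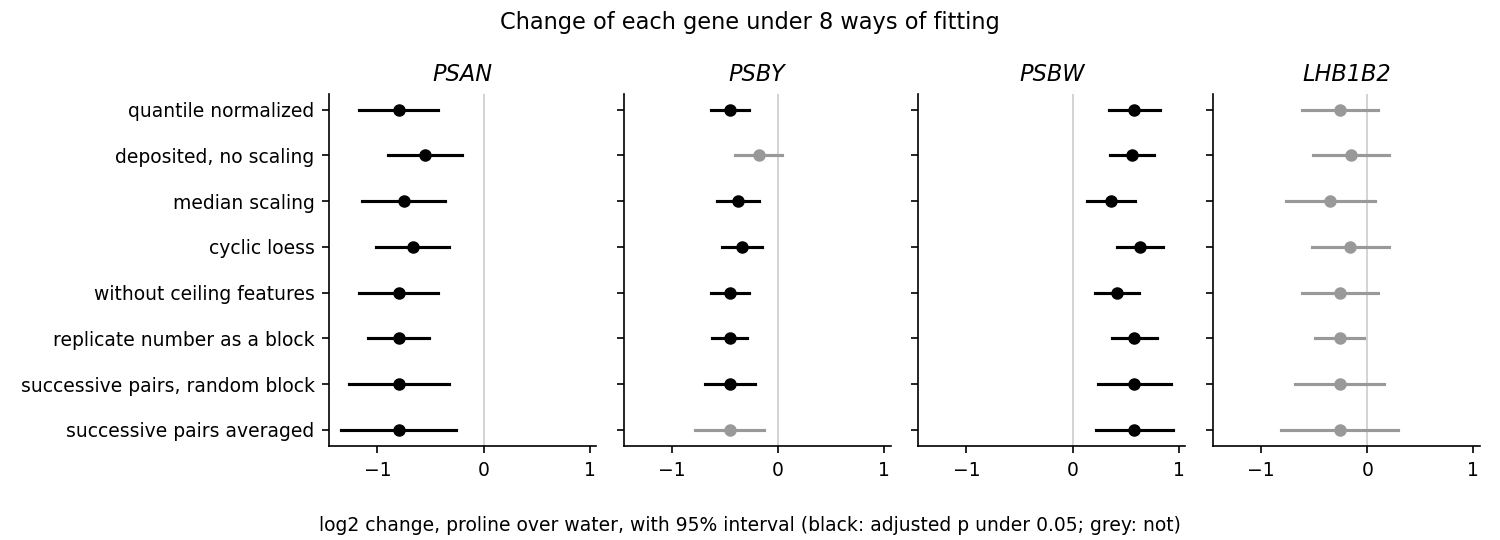
Log2 change of proline over water (horizontal axis) with its 95% interval for each gene under 8 ways of fitting, with black for an adjusted p under 0.05 and grey for the rest. PSAN and PSBW are black in all 8, PSBY is grey for the deposited values and for averaged successive pairs, and LHB1B2 is grey in all 8.

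Unequal change among the 4 genes was measured as the log2 ratio of the deposited intensities of 2 genes on the same array. A factor that scales a whole array cancels in this ratio, whereas quantile normalization does not. A difference between arrays in the spread of log2 values does not cancel either. The interquartile range of log2 intensity lay between 1.95 and 2.54 on these arrays. All 6 pairs of genes were compared by an exact permutation test (two-sided, smallest possible p = 0.00216), with p-values adjusted over the 6 pairs. This test treats the 12 arrays as separate.

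The ratios that involve PSBW changed. PSAN over PSBW had a mean log2 ratio of -5.15 ± 0.357 after proline and -4.04 ± 0.287 in water (SD, n = 6 each), a difference of -1.11 ± 0.19 SE (exact adjusted p = 0.00649). PSBY over PSBW differed by -0.74 ± 0.14 SE (exact adjusted p = 0.00649). In both of these ratios the groups did not overlap. How often ratios of other features keep the groups apart was not measured. Each sets a gene that was lower over a gene that was higher, so these ratios partly restate the changes given above. PSBW over LHB1B2 differed by 0.71 ± 0.17 SE (exact adjusted p = 0.0130), with the proline sample higher in 6 of 6 same-numbered pairs, although the groups overlapped. From quantile normalized values these 3 differences were -1.38, -1.03 and 0.84 (exact adjusted p = 0.00433 for each).

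Among the other 3 genes, PSAN fell relative to LHB1B2. That ratio had a mean of -2.66 ± 0.210 after proline and -2.25 ± 0.213 in water on the log2 scale (SD, n = 6 each). The difference was -0.40 ± 0.12 SE (exact adjusted p = 0.0162). The ratio was lower in 6 of 6 same-numbered pairs, although the groups overlapped. From quantile normalized values the difference was -0.54 (exact adjusted p = 0.00649). PSAN over PSBY differed by -0.37 ± 0.20 SE (exact adjusted p = 0.122), or -0.34 from quantile normalized values (exact adjusted p = 0.143). Without proline replicate 2 this difference was -0.49 (exact adjusted p = 0.0390), so that sample decides the call. PSBY over LHB1B2 differed by -0.032 ± 0.24 SE (exact adjusted p = 0.877), an error that leaves room for a change of the size seen for PSAN over LHB1B2. From quantile normalized values that difference was -0.20 (exact adjusted p = 0.364), so its size depends on the normalization.

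**Figure D5:**
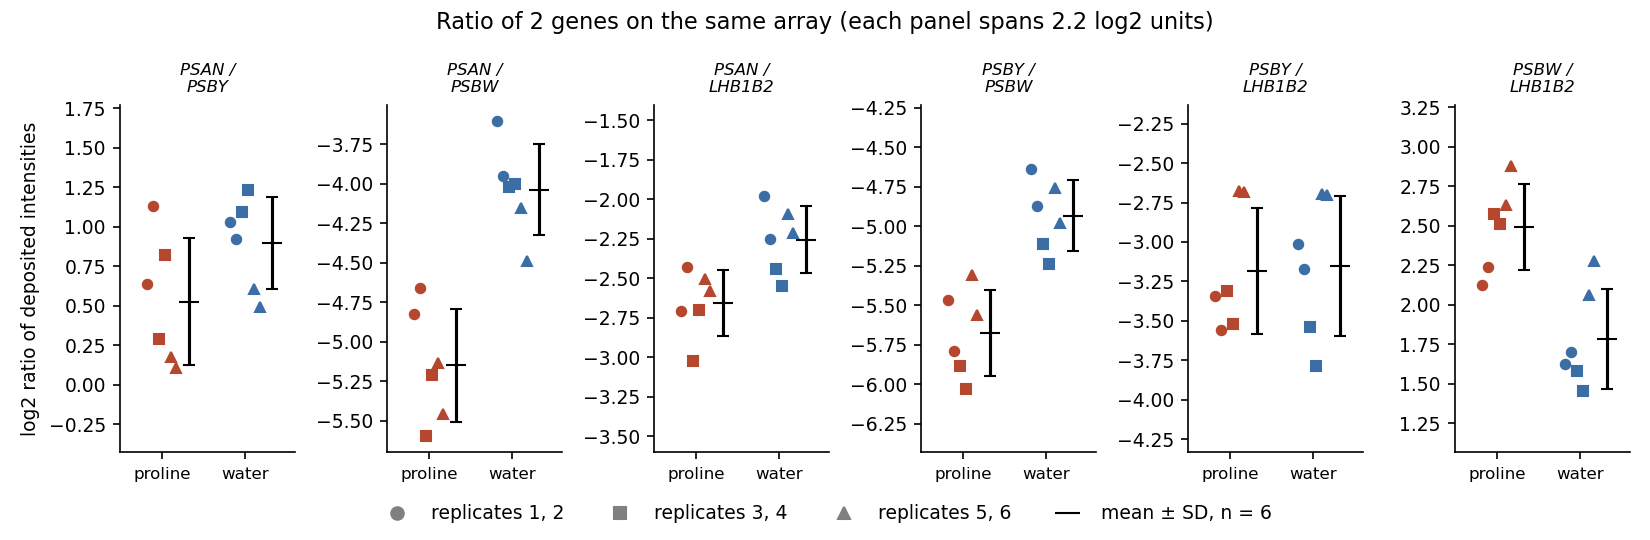
Log2 ratio of the deposited intensities of 2 genes on the same array (vertical axis, 2.2 log2 units in each panel), in the proline samples and the water samples. Points are samples, with a marker shape for each successive pair of replicate numbers, and bars are the mean ± SD. The groups are fully apart for PSAN over PSBW and PSBY over PSBW, and overlap in the other panels. PSBY over LHB1B2 differed by -0.032 in these deposited values.

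The deviations of the 4 genes from their group means were compared as a description over the same 12 arrays, which share array effects and the likeness of successive replicates. PSAN and LHB1B2 deviated together, with a Pearson correlation of 0.83. PSBY deviated against LHB1B2 (-0.63), against PSBW (-0.45) and against PSAN (-0.36). PSBW had a correlation of 0.43 with LHB1B2 and of 0.12 with PSAN. Samples with a high LHB1B2 value for their group thus tended to have a high PSAN value and a low PSBY value.

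The genes most like each of the 4 were looked up among 532 other features with 1 gene and a value on every array, by the Pearson correlation of normalized values over the 12 samples, which holds the proline difference as well. For PSAN these were AT4G20690, AT2G14660 and AT3G19120, at 0.93, 0.93 and 0.92, and their deviations from group means correlated with those of PSAN at 0.82, 0.80 and 0.85. For PSBY they were AT3G54210, GH9B12 and AT4G13680, at 0.97, 0.95 and 0.95, with 0.76, 0.58 and 0.60 for the deviations. For PSBW they were IAA31, AT1G13370 and AT3G53470, at 0.93, 0.92 and 0.91, with 0.73, 0.62 and 0.81 for the deviations. The partners of all 4 genes were picked by a correlation that includes these deviations. High values for the deviations are thus partly set by the choice, and their range over other features was not measured.

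By this correlation over the 12 samples, LHB1B2 had less close partners in AT5G38360, AT4G08280 and AT1G32730, at 0.89, 0.82 and 0.81. Their deviations correlated with those of LHB1B2 at 0.88, 0.77 and 0.84, against 0.58 to 0.85 for the partners of the other genes. By deviations the partners of LHB1B2 were thus not less close. The least like feature was AT3G04500 for both PSAN (-0.97) and LHB1B2 (-0.79). It was AT2G46850 for PSBY (-0.96) and AT2G04700 for PSBW (-0.93).

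Few other genes of the photosynthesis lists used here could be set beside them. Of 79 nuclear genes of the photosystems, their antenna, electron transport, the ATP synthase and the Calvin cycle, 7 had a feature with 1 gene, and 6 of these were tested. Besides the 4, PRK encodes phosphoribulokinase, which renews the acceptor of carbon dioxide in the Calvin cycle. PRK fell 1.35-fold (log2 -0.43 ± 0.13 SE, limma adjusted p = 0.0184). That call was absent in the deposited values (log2 -0.19, limma adjusted p = 0.322), after cyclic loess (limma adjusted p = 0.0700) and with successive replicates averaged (limma adjusted p = 0.157, or 0.184 with the pair number as a block). The change of PRK also differed by replicate, at -0.053 and 0.089 between same-numbered samples for replicates 1 and 2 and between -0.81 and -0.38 for replicates 3 to 6. Leaving a successive pair of numbers out of each group gave a log2 change of -0.65 without the first pair (limma adjusted p = 0.00567), -0.39 without the second (limma adjusted p = 0.134) and -0.24 without the last (limma adjusted p = 0.181). SBPASE, the sedoheptulose bisphosphatase of the same cycle, was listed at 0 on all 12 arrays. No gene of the electron transport and ATP synthase list had a feature of its own, and photosynthesis genes outside the lists were not looked up.

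PSB27, which encodes a lumenal protein that binds photosystem II during its assembly and repair, did not pass and divided by replicate. Its intensity in replicates 1 to 6 was 0.195, 0.275, 1.51, 1.45, 2.92 and 2.65 after proline, against 0.389, 0.467, 0.857, 0.920, 1.03 and 1.05 in water. The proline samples were lower in replicates 1 and 2 and higher in replicates 3 to 6. Its log2 change was 0.17 ± 0.64 SE (limma adjusted p = 0.857), and 0.81 when the first 2 replicate numbers were left out of each group (limma adjusted p = 0.0234). Of the 6 tested genes of the lists, 1 rose, 3 fell and 2 did not pass, where 18.3% of all tested features rose and 25.9% fell. As deposited PSBY and PRK did not pass, which left PSBW higher and PSAN lower. The median log2 change of the 6 was -0.34, against -0.12 for all tested features.

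In the series as a whole, between 453 and 534 of the 3439 features per array were listed at 0, and the median log2 intensity of the arrays ranged over 0.35. The deposited table has no measure of signal over background, so the part of noise in a dim feature is unknown, and the number of arrays limits the precision.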

How the data were processed

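The authors deposited relative intensities on a linear scale, with exact zeros and a highest value just under 100 on every array. Their background subtraction and array scaling are not stated in the labels. Zeros were set to missing, log2 values were quantile normalized, and a feature was tested with at least 4 values in each group of 6. The comparison used limma 3.58.1 in R 4.3.3 (two-sided, moderated by eBayes, without a block), Benjamini-Hochberg adjusted over all 2861 tested features. The limma fit was checked on simulated data with independent noise on each array. That check did not cover the normalization, the blocks, the exact tests or likeness between replicates. Random blocks used statmod 1.5.0. Exact tests ran in Python 3.11.15. Gene names come from GEO's old platform annotation and a RefSeq gene table. The place of a feature by brightness within its array was used only to compare that feature between the groups.

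The members, gene lists, tests and nearly all alternatives were chosen with earlier results of these data known. The named genes are the 4 members, every listed photosynthesis gene with its own feature, and for each member the 3 most like genes and the least like. Averaging successive replicates with the pair number as a block was added after the data were seen.

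Per the labels, replicates are numbered 1 to 6 in each group. For number 1 to 6 in turn, the deviations from group means correlated between proline and water samples at 0.403, 0.370, 0.255, 0.257, 0.283 and 0.184 over 2674 features. Same-numbered samples thus resembled each other, but no label says that they were paired, and the source of the likeness was not tested. Successive replicates of a group (1 with 2, 3 with 4, 5 with 6) deviated together as well, with a mean correlation of 0.206 and a consensus correlation of 0.52.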

Additional observations from a re-analysis of the deposited data

How the results depend on the processing

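The replicate number as a block left the calls of all 4 genes as they were. With that replicate block fixed, PSAN, PSBY and PSBW had limma adjusted p of 0.00189, 0.00195 and 0.00204, LHB1B2 had 0.0657, and 1360 features changed instead of 1263. Exact sign flips of the 6 same-numbered differences gave p = 0.0312 for PSAN, PSBY and PSBW, the smallest they can give, and 0.0625 for LHB1B2.

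With successive replicates averaged, 661 features changed, and 692 with the pair number as a block besides. PSBY kept its log2 change of -0.45 there but not its call (limma adjusted p = 0.0558 and 0.0724), and as deposited its change was -0.18. PSAN stayed near the threshold with averaged replicates (limma adjusted p = 0.0472) and when replicates 3 and 4 were left out of each group (limma adjusted p = 0.0480). With the pair number as a block besides, PSAN had a limma adjusted p of 0.0287. PSBW was also near the threshold with averaged replicates (limma adjusted p = 0.0388, and 0.0468 with the pair number as a block). PSAN and PSBW passed, and LHB1B2 did not, in all 30 alternatives run for each. These alternatives are not independent, as the 12 that leave out 1 sample share most of their data. The exact tests among them were judged by unadjusted p.

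Leaving out 1 sample at a time gave log2 changes of -0.92 to -0.72 for PSAN, -0.49 to -0.42 for PSBY, 0.52 to 0.65 for PSBW and -0.34 to -0.17 for LHB1B2, with 1185 to 1220 features changed. For the ratio of PSAN over PSBY it gave -0.49 to -0.29, and for PSBY over LHB1B2 -0.16 to 0.058, with either sign. PSB27 ran from -0.13 to 0.62, and was -0.33 when replicates 5 and 6 were left out of each group. The cause of these moves was not tested.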
